A study of Mus musculus with 35 samples.

Results

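The effect of the activating kinase mutation JAK2V617F was examined in mouse long-term haematopoietic stem cells (LT-HSCs) that lacked Ezh2, by setting all libraries labelled JAK2V617F and Ezh2 -/- (6 libraries, here JAK2-VF Ezh2-null) against all libraries labelled Ezh2 -/- without the mutation (4 libraries, here Ezh2-null). These 10 libraries were chosen by their labels from 35 libraries of 6 genotypes. All mice of both groups carried SclCre, a Cre recombinase transgene whose Scl regulatory sequence drives it in blood stem and progenitor cells, so by label the cells compared differed in JAK2V617F, and in how sex and batch were spread. The labels give no age, no treatment and no animal for a library, and p-values therefore measure the spread between these libraries. Each library came from 1000 sorted cells. The Ezh2-null libraries were 1 male in batch 1 and 1 female and 2 males in batch 2, and the JAK2-VF Ezh2-null libraries were 3 females in batch 1 and 2 females and 1 male in batch 2. For comparison, the effect of the mutation with Ezh2 intact was taken from 6 JAK2-VF and 4 control (SclCre only) libraries, which shared no library with the 10. All 4 control libraries were female, with libraries in both batches, and JAK2-VF libraries were female in batch 1 and male in batch 2. Relative to cells without the mutation, mutant libraries were thus skewed toward females without Ezh2 and toward males with Ezh2 intact.

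JAK2 is the kinase bound to receptors for erythropoietin and several other cytokines, and JAK2V617F keeps it active without cytokine. Active JAK2 phosphorylates STAT5, which enters the nucleus and switches on its own inhibitors, among them the SOCS-family genes Socs2 and Cish, together with genes of survival and growth. Ezh2 is the catalytic subunit of Polycomb repressive complex 2 (PRC2), which marks histone H3 at silenced genes. Loss-of-function mutations of EZH2 accompany JAK2V617F in some patients with myelofibrosis. The comparison here asks how stem cells lacking this silencer differed with the mutation, and the labels do not say which change came first.

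The 10 libraries held 21.75 to 48.557 M (mega) counts and 13967 to 15160 genes with counts. The separately counted part of Ezh2 had 0 counts in 9 of the 10 libraries, where the limit set by 3 counts was 0.213 to 0.634% of a library's Ezh2 counts (counting error only), and 3 of 627 counts, 0.478%, in Ezh2-null batch 2 replicate 2. Whole-gene Ezh2 was 22.9 ± 3.86 CPM (counts scaled to a library of 1 M counts; SD, n = 4) in Ezh2-null and 26.9 ± 7.66 CPM (n = 6) in JAK2-VF Ezh2-null libraries. Markers used to recognise LT-HSCs were present in all 10 libraries: Slamf1 at 52.9 to 59.1 CPM in Ezh2-null and 46.7 to 75.8 CPM in JAK2-VF Ezh2-null libraries, and Mecom at 167 to 192 and 148 to 229 CPM. Cd48, low on these cells, was at 0 to 7.68 CPM in Ezh2-null and 4.55 to 14.1 CPM in JAK2-VF Ezh2-null libraries. Of other markers, Procr, Hlf and Mllt3 fell without overlap (values below), the median of Ly6a was 294 and 229 CPM (edgeR adjusted p = 0.315), and that of Cd34 was 193 and 266 CPM (edgeR adjusted p = 0.105). Whether the sorted cells were alike in their makeup was not tested. Library JAK2-VF Ezh2-null batch 1 replicate 2 stood apart in megakaryocyte and MHC class II genes (values below), and its effect on the counts is given with them. Fewer cells of a type and less RNA per cell cannot be told apart in such pooled cells.

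Of 14945 genes tested, 428 rose (2.86%) and 295 fell (1.97%) by edgeR's quasi-likelihood test at a Benjamini-Hochberg adjusted p under 0.05, together 4.84%, with batch and sex as terms. Genes of cell division and the JAK-STAT inhibitor genes Socs2 and Cish were among those that rose, and stem-cell genes such as Mllt3 and Hlf, the retinoic acid genes Cyp26b1 and Rarb and the imprinted genes Meg3 and Igf2 among those that fell. The median log2 change over all genes tested was 0.01, and 7577 of the 14945 values were positive. Counts given below for gene lists are to be read beside the shares of 2.86% and 1.97%. Every JAK2-VF Ezh2-null library lay above every Ezh2-null library for 290 of the 428 genes that rose and below for 168 of the 295 that fell, against 3.85% and 2.94% of all genes tested. The called genes were chosen from these same libraries, so their larger shares follow from that choice and are no added evidence. The counts moved with single libraries: without the only female among the Ezh2-null libraries, batch 2 replicate 1, 223 genes rose and 134 fell, without batch 2 replicate 3 these were 266 and 184, and without JAK2-VF Ezh2-null batch 2 replicate 2, the only male of its group, 168 fell. Batch 1, with 1 Ezh2-null library and no sex in common between the groups, gave 3 rises and 0 falls alone, and batch 2 gave 185 and 188.

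The JAK-STAT list held 70 genes tested, of which 7 rose and 3 fell, with a median log2 change of -0.09. Among 24 receptors 1 rose and 2 fell, of 4 kinases 1 rose, none of 7 STAT genes passed, and 2 of 18 inhibitors and 3 of 17 targets rose while 1 target fell. The list median thus lay near that of all genes, and Socs2, Cish, Pim2 and Osm among the members that rose are known STAT5 response genes. Cish and Serpina3g hold the letters TTCNNNGAA, the core that STAT5 dimers recognise, in the reference promoter, and their windows are shown for that reason.

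Both windows run from 250 bases before to 50 bases after the transcript start (RefSeq, build GRCm38.p6, plus strand, 5′ to 3′), with each TTCNNNGAA match in capitals. The Cish window lies at chr9:107296409-107296708 and holds 2 matches, TTCCTGGAA with its first base at the start site and TTCTTGGAA 11 bases downstream. The Serpina3g window lies at chr12:104235897-104236196 and holds 1 match, TTCCCAGAA, which begins 33 bases upstream of the start.
Cish: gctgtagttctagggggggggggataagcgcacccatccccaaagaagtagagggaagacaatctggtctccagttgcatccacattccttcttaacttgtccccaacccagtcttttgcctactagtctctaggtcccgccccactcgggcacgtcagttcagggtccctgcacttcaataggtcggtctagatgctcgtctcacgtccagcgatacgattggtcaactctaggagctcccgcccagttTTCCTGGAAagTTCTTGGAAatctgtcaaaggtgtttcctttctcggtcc
Serpina3g: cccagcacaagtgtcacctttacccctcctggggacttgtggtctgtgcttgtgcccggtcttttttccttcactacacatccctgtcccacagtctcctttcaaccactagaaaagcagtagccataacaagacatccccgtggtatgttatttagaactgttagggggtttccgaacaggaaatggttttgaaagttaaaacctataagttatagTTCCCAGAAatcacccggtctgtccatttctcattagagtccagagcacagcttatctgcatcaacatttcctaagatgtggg
TTCNNNGAA reads the same on both strands. It was present in 8.3% of all 32851 windows, and by gene in 9.55% of all genes with a window and 8.33% of tested genes with one. The shares were 8.55% of the 339 genes that rose and have a window, 9.92% of the 242 that fell, and 15.1% of the 53 JAK-STAT genes with one. Of the other JAK-STAT genes that passed, Bcl6, which fell, holds it in both of its windows, and Jak2, Kit and Pim2 hold none. Socs2, Csf2rb and Osm were not searched, since no window was used for them. These shares describe letters in a window and not binding.

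Socs2, which encodes an inhibitor that binds activated cytokine receptors, rose more than any other gene of the list. It was at 29.4 CPM in the batch 1 Ezh2-null library and 32.4, 18.2 and 35.1 CPM in those of batch 2, and at 110 to 312 CPM (median 241) in JAK2-VF Ezh2-null libraries. The lowest mutant library, batch 1 replicate 2, was still more than any Ezh2-null library. The log2 change was 3.16 ± 0.26 (SE; edgeR adjusted p = 6.16e-10), an 8.94-fold rise, and it was 2.87 in batch 1 and 3.32 in batch 2 alone. With Ezh2 intact Socs2 went from 41.1 ± 13.3 (n = 4) to 140 ± 25.2 CPM (n = 6), and the log2 change was 1.61 ± 0.25 (edgeR adjusted p = 0.000168). The difference between the effects, 1.55 ± 0.35, had an unadjusted p of 0.000107 and did not pass over all genes (edgeR adjusted p = 0.209). Of 20 single libraries left out in turn, only leaving out JAK2-VF Ezh2-null batch 1 replicate 2 made it pass, at 1.65 (edgeR adjusted p = 0.0402). With all libraries, DESeq2's Wald test passed it (adjusted p = 0.00464), while limma-voom and the fit without the term for sex did not.

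Cish, the related inhibitor whose promoter is printed above, had 80.6 CPM in the batch 1 Ezh2-null library and 166, 142 and 115 CPM in batch 2. In JAK2-VF Ezh2-null libraries it ran from 252 to 723 CPM (median 466), with the 3 libraries of batch 1 at 252 to 345 CPM and those of batch 2 at 586 to 723 CPM. The groups did not overlap in either batch, and the log2 change was 2.01 ± 0.27 (edgeR adjusted p = 1.12e-05). With Ezh2 intact the value was 0.83 ± 0.27 and did not pass (edgeR adjusted p = 0.0715), and the difference between the effects did not pass either (1.18 ± 0.39, edgeR adjusted p = 0.53). Other inhibitors of the list did not pass: Socs1 had a log2 value of 1.57 ± 0.98, Socs3 -0.57 ± 0.45 and Ptpn6, a phosphatase gene, 0.17 ± 0.15.

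Among the receptors, Csf2rb rose. It encodes the shared beta chain of the receptors for IL-3, IL-5 and GM-CSF, which signals through JAK2. Its levels were 15.8 CPM in batch 1 and 22.7, 10 and 27.8 CPM in batch 2 of Ezh2-null cells, and 83.3 to 132 CPM (median 99.3) with JAK2-VF, a log2 change of 2.28 ± 0.26 (edgeR adjusted p = 1.1e-06). No library of either group overlapped the other. Its close copy Csf2rb2, whose reads may be split between both genes, had a log2 value of 1.1 ± 0.41 and did not pass (edgeR adjusted p = 0.123). Kit, the stem cell factor receptor gene, had a log2 change of -0.74 ± 0.20 (edgeR adjusted p = 0.0256), with 4 of 6 libraries below every Ezh2-null library. The Kit value was -1.0 in batch 2 and 0.09 in batch 1, where the 3 mutant libraries at 899 to 1180 CPM surrounded the single Ezh2-null library at 1120 CPM, and the call was lost on leaving out any of 5 of the 10 libraries.

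Jak2 itself rose from 49.3 CPM in batch 1 and 38.6, 39.6 and 54.9 CPM in batch 2 to 101, 113 and 134 CPM in batch 1 and 56.0, 60.5 and 68.0 CPM in batch 2. The rise was thus 1.11 on the log2 scale in batch 1 and 0.48 in batch 2, and 0.68 ± 0.17 in all (edgeR adjusted p = 0.0159). On leaving out either Ezh2-null batch 1 replicate 1 or Ezh2-null batch 2 replicate 1, Jak2 no longer passed, at an adjusted p of up to 0.0998. Whether the counts include RNA of the mutant allele was not tested. Jak1 (log2 0.02 ± 0.13), Tyk2 (0.00 ± 0.21), Stat5a (-0.12 ± 0.13) and Stat5b (-0.12 ± 0.18) did not pass.

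**Figure D1:**
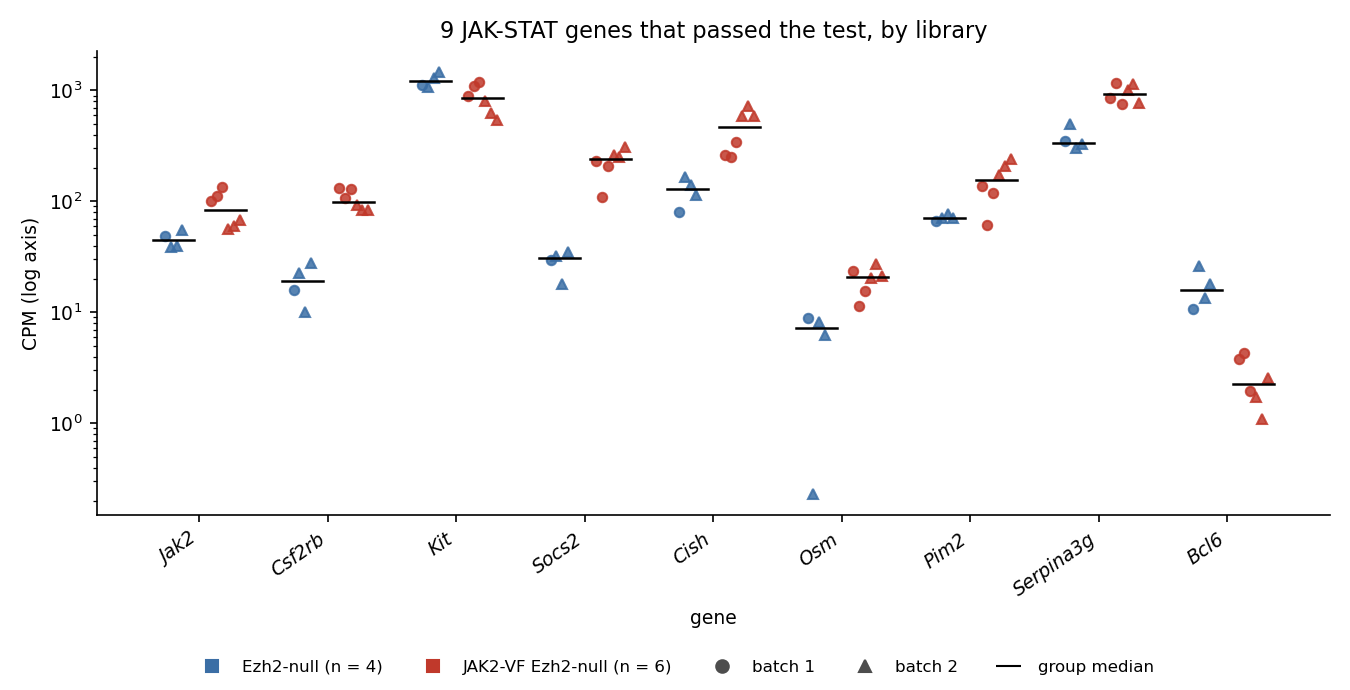
CPM (log axis) in each of the 4 Ezh2-null (blue) and 6 JAK2-VF Ezh2-null (red) libraries for 9 of the 10 JAK-STAT genes that passed, with batches as circles and triangles and group medians as lines. Socs2, Csf2rb, Cish and Serpina3g are separated without overlap, Jak2 is higher in batch 1 than in batch 2 among the red points, and Kit overlaps.

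Of the targets, Serpina3g, a protease inhibitor gene of activated lymphoid and myeloid cells whose promoter is shown above, stood at 350 CPM in batch 1 and 495, 305 and 326 CPM in batch 2 without the mutation. With it the range was 751 to 1170 CPM (median 933). The log2 change of 1.45 ± 0.20 (edgeR adjusted p = 1.7e-05) lay beside 0.28 ± 0.20 with Ezh2 intact (edgeR adjusted p = 0.521), and the difference, with an unadjusted p of 0.000377, did not pass over all genes (adjusted p = 0.237). It belongs to a family of near-identical serpin genes, so its counts may include those of its relatives. Pim2, a survival kinase gene, rose by 1.31 ± 0.34 (edgeR adjusted p = 0.0177), from 66.2 to 76.5 CPM to a median of 155 CPM. In batch 1 replicate 2 Pim2 was at 61.5 CPM, below every Ezh2-null library, and the value was 0.24 in batch 1 and 1.56 in batch 2. Osm, the cytokine oncostatin M, rose by 2.49 ± 0.70 (edgeR adjusted p = 0.0295), from 0.23 to 8.98 CPM to 11.4 to 27.4 CPM. Bcl6, a transcriptional repressor that STAT5 is known to lower, had a log2 change of -2.60 ± 0.67 (edgeR adjusted p = 0.0165), from 10.7 to 26.2 CPM to 1.09 to 4.30 CPM. The calls of Pim2, Osm and Bcl6 were each lost on leaving out 2 or 3 single libraries, always including Ezh2-null batch 2 replicate 1. Pim1 (0.44 ± 0.24), Bcl2l1 (0.52 ± 0.18) and Ccnd2 (-0.09 ± 0.11), other STAT5 targets, did not pass.

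Genes of cell division rose together. Of 40 mitosis genes 31 rose and none fell, with a median log2 change of 1.97 and all 40 values positive, and of 32 DNA replication genes 18 rose and none fell, with a median of 0.96 and all values positive. Each JAK2-VF Ezh2-null library was above every Ezh2-null library for 37 of the 40 and 17 of the 32. The summed level of the mitosis list was 1078 CPM in the batch 1 Ezh2-null library and 956, 971 and 766 CPM in batch 2, and 2087 to 4399 CPM (median 2591) with JAK2-VF. Batch 1 mutant libraries were at 3018 to 4399 CPM and batch 2 libraries at 2087 to 2164 CPM, so the level of division genes with the mutation differed by batch while both batches lay above the Ezh2-null cells. Alone, batch 2 gave 14 mitosis and 4 replication genes past the test, batch 1 none.

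Cdk1, the kinase that drives entry into mitosis, was at 37.3 CPM in batch 1 and 28.7, 28.5 and 24.5 CPM in batch 2 of Ezh2-null cells and at 74.6 to 140 CPM (median 96.6) with JAK2-VF (log2 1.85 ± 0.29, edgeR adjusted p = 9.91e-05). Bub1b, of the spindle checkpoint, went from 11.1 to 21.3 CPM to 57.5 to 118 CPM (2.47 ± 0.34, adjusted p = 1.12e-05). The cyclin gene Ccna2 (1.98 ± 0.31), the mitotic kinase gene Pbk (1.99 ± 0.32) and Nusap1, of the spindle (2.36 ± 0.38), had edgeR adjusted p-values of 0.000111, 0.000111 and 0.000126. For these 5 genes the groups did not overlap, and the calls held on leaving out each of the 10 libraries. Foxm1, the transcription factor of the mitotic programme, rose by 3.0 ± 0.86 (edgeR adjusted p = 0.0337), with batch 1 replicate 3 at 41.4 CPM and the other mutant libraries at 6.03 to 15.5 CPM, and its call was lost without any of 5 libraries.

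The letters TTTGAA, the core of the cell cycle homology region through which the DREAM complex and its MuvB core act on mitotic genes, were looked for on both strands of the same kind of window. The Cdk1 window (RefSeq, GRCm38.p6, chr10:69352863-69353162, minus strand, 5′ to 3′) holds 2 matches, in capitals, which begin 71 and 15 bases upstream of the start, and is shown as an example of the list.
Cdk1: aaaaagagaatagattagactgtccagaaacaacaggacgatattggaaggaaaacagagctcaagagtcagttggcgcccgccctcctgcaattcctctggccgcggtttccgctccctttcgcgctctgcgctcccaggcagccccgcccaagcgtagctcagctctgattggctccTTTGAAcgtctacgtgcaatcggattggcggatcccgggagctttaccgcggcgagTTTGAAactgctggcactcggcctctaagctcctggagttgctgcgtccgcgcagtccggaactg
Of 31 mitosis genes with a window 21 held TTTGAA (67.7%), against 11.1% of 27 DNA replication genes and 26.3% of the 339 genes that rose. It was in 17.9% of all windows, and by gene in 20.2% of all genes with a window and 14.8% of tested genes with one.

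In the replication list the nucleotide synthesis genes Tyms (1.39 ± 0.22, edgeR adjusted p = 0.000125), Rrm2 (2.0 ± 0.37, 0.000848) and Tk1 (1.82 ± 0.39, 0.00362) rose, with the flap endonuclease gene Fen1 (0.97 ± 0.17, 0.00061) and Pcna, the sliding clamp (0.86 ± 0.17, 0.00128). Tyms was at 54.3 CPM in batch 1 and 43.3, 54.0 and 48.2 CPM in batch 2 without, and at 101 to 173 CPM (median 125) with JAK2-VF, again without overlap. Of 8 CDK inhibitor and pocket-protein genes tested 2 fell and none rose. Cdkn1c, the p57 inhibitor that keeps stem cells quiescent, fell from 44.8 CPM in batch 1 and 32.1, 29.4 and 48.3 CPM in batch 2 to 9.95 to 22.6 CPM (median 16.7), a log2 change of -1.23 ± 0.28 (edgeR adjusted p = 0.00585). Rbl2, the p130 pocket protein, had a log2 change of -0.65 ± 0.20 (adjusted p = 0.0478) that was lost on leaving out any of 9 libraries. Cdk4 (0.55 ± 0.11, adjusted p = 0.00282) and the cyclin gene Ccne2 (1.43 ± 0.30, 0.00304) rose among 8 G1 cyclins and kinases.

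**Figure D2:**
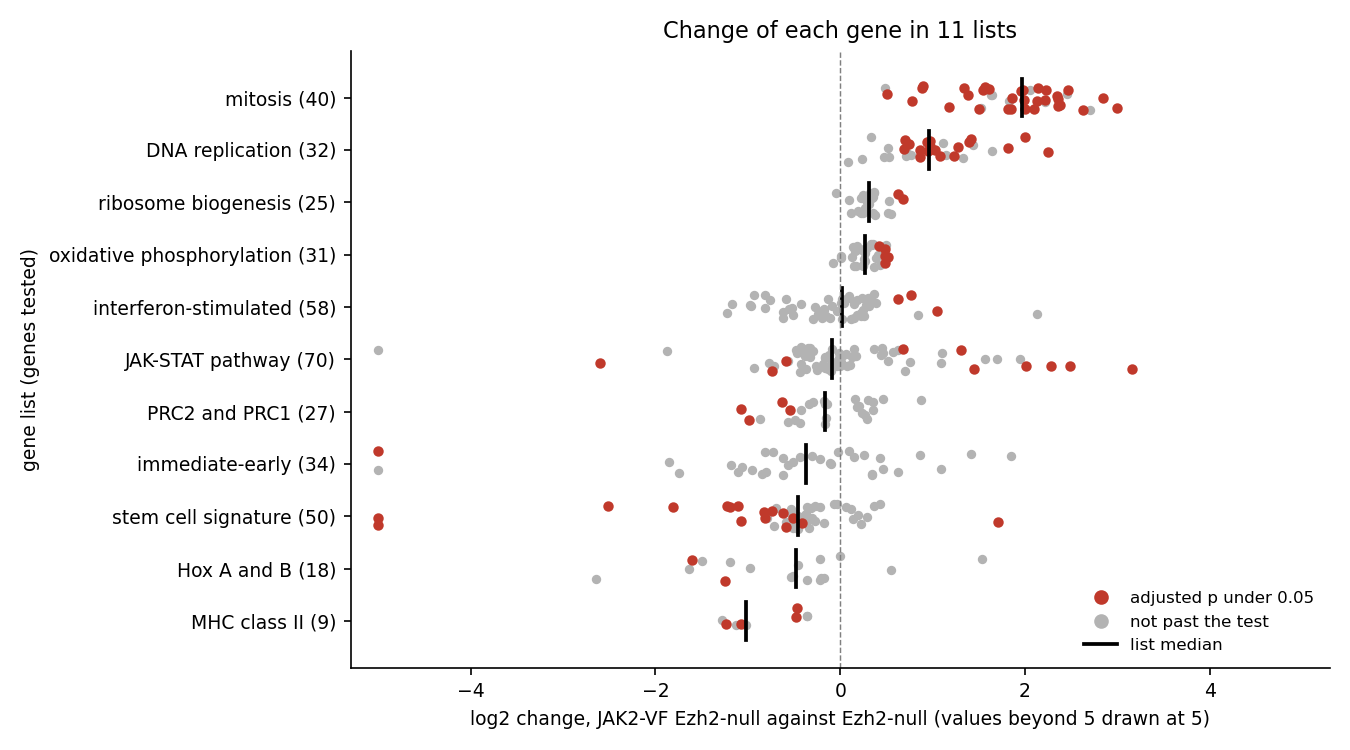
Log2 change of every tested gene in 11 lists, one point per gene, red where the adjusted p was under 0.05, with the list median as a black line. Mitosis and DNA replication genes all lie above 0 (medians 1.97 and 0.96), all 9 MHC class II genes lie below 0 (median -1.02), and the JAK-STAT list is spread on both sides of its median of -0.09. Values beyond 5 are drawn at 5.

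Genes of the stem-cell signature fell. Of 50 tested 15 fell and 1 rose, with a median log2 change of -0.46 and 41 negative values. The summed level of the list was 12291 to 14037 CPM in Ezh2-null and 9532 to 10961 CPM in JAK2-VF Ezh2-null libraries, without overlap. Mllt3, a chromatin reader that maintains stem cells, was at 421 CPM in batch 1 and 450, 374 and 448 CPM in batch 2 and dropped to 151 to 210 CPM (median 187), a log2 change of -1.19 ± 0.15 (edgeR adjusted p = 5.25e-06). Hlf, a transcription factor of LT-HSCs, went from 602, 603, 413 and 671 CPM to 216 to 344 CPM (-1.11 ± 0.17, adjusted p = 9.91e-05), and Runx1t1 from 58.9, 48.2, 75.0 and 69.8 CPM to 4.31 to 17.4 CPM (-2.51 ± 0.37, adjusted p = 4.45e-05). Ndn, an imprinted growth suppressor gene, had a log2 change of -0.81 ± 0.14 (adjusted p = 0.000293). None of these 4 genes overlapped between the groups, and their calls held without each of the 10 libraries. Procr, whose protein EPCR marks LT-HSCs, fell too, from 150 to 261 CPM to 66.6 to 133 CPM (-0.82 ± 0.20, adjusted p = 0.0134). Mycn, a Myc-family gene, was the member that rose (1.71 ± 0.37, adjusted p = 0.00469), from 76.9 to 144 CPM to 187 to 460 CPM, and it did not pass once Ezh2-null batch 2 replicate 1, its lowest library, was left out. Slamf1 and Mecom, given above, overlapped between the groups and did not pass.

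Some imprinted genes were at or near 0 with the mutation. Meg3, the maternally expressed long RNA of the Dlk1-Dio3 locus, stood at 47.7 CPM in batch 1 and 46.9, 28.9 and 55.7 CPM in batch 2, and at 0.00 to 2.40 CPM (median 0.339) with JAK2-VF, a log2 change of -6.35 ± 0.84 (edgeR adjusted p = 1.12e-05). Rian, a neighbouring long RNA of that locus named after its values were seen, had 335 counts in all 4 Ezh2-null libraries together and 0 in the 6 mutant libraries. With 3 counts per group as the floor, it was at least 184-fold lower (edgeR adjusted p = 0.00109). Igf2, the imprinted fetal growth factor gene, had 698 counts in the 4 and 0 in the 6 libraries, at least 383-fold lower (adjusted p = 5.28e-05). Per library Igf2 was at 7.43 CPM in batch 1 and 7.53, 5.55 and 4.21 CPM in batch 2 of Ezh2-null cells and at 0 CPM in every mutant library. Meg3 fell with Ezh2 intact as well (-5.55 ± 0.85, adjusted p = 0.000233).

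Cyp26b1 and Rarb, both of retinoic acid signalling, fell. Cyp26b1, an enzyme that degrades retinoic acid, was at 21.1 CPM in batch 1 and 28.7, 38.1 and 61.2 CPM in batch 2 and at 0.00 to 1.28 CPM (median 0.323) with JAK2-VF, a log2 change of -6.98 ± 0.97 (edgeR adjusted p = 2.21e-05). Rarb, a retinoic acid receptor gene that is itself a textbook target of the receptors, went from 4.29, 10.2, 3.71 and 24 CPM to 0.31 to 3.17 CPM (median 0.669), a log2 change of -3.30 ± 0.72 (adjusted p = 0.00446). The Rarb levels did not overlap, but the fitted value in batch 1 alone, where sex and genotype coincide in these groups, was 0.71. The Rarb promoter (RefSeq, GRCm38.p6, chr14:16575427-16575726, minus strand, 5′ to 3′) is shown because it carries the retinoic acid response element, a direct repeat of GTTCA with 6 bases between its copies, which begins 52 bases upstream of the start, in capitals.
Rarb: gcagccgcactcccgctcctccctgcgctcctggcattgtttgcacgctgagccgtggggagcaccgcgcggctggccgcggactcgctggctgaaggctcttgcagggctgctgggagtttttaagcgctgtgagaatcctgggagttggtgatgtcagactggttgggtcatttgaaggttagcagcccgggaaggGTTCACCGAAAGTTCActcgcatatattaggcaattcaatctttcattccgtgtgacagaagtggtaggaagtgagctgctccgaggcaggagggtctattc
These letters on either strand were in 25 of 32851 windows (0.0761%), and Rarb was the only gene among the 242 that fell and have a window to hold them, with 0 of the 339 that rose. A TTCNNNGAA match overlaps the repeat. Pgr, the progesterone receptor gene, changed by -3.78 ± 0.53 (edgeR adjusted p = 1.85e-05).

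**Figure D3:**
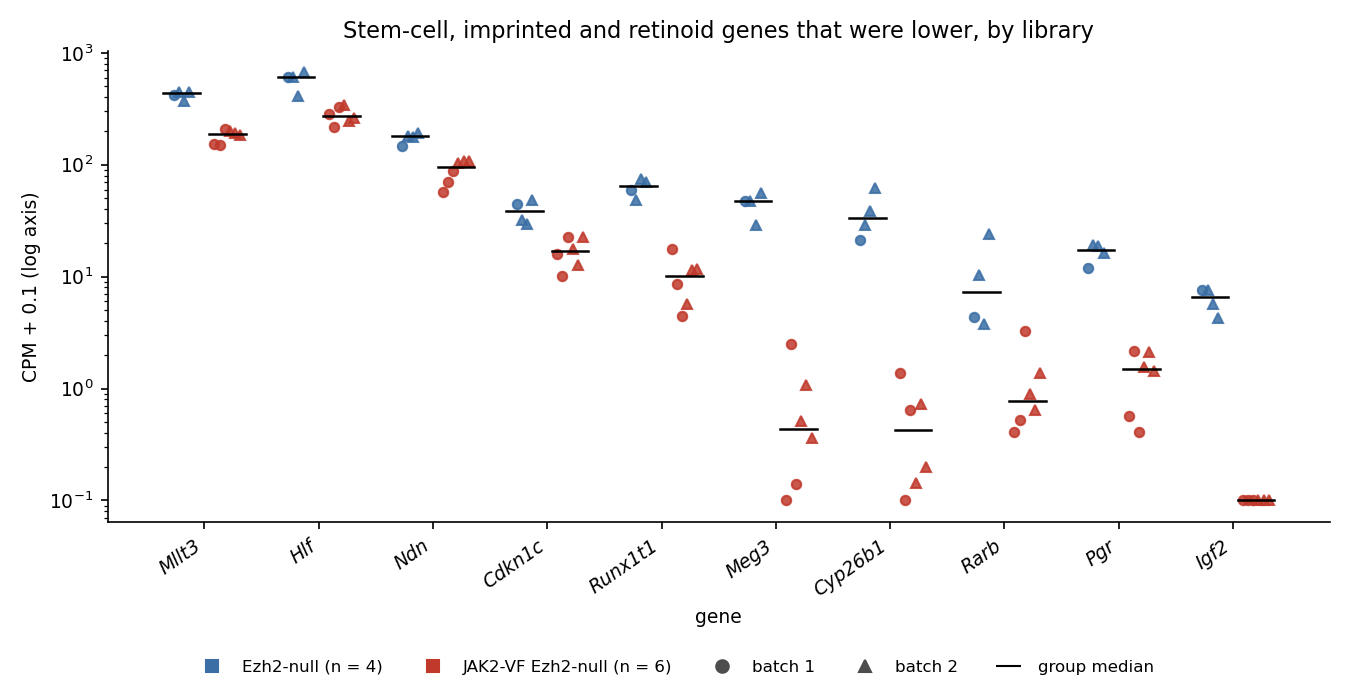
CPM + 0.1 (log axis) in each library for 10 genes that were lower with JAK2-VF, symbols as in the plot of JAK-STAT genes. The red points lie below the blue points for each gene, and Igf2 is at 0 CPM in all 6 JAK2-VF Ezh2-null libraries.

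Other large falls were of signalling and adhesion genes. Plk2, a polo-like kinase that p53 induces, went from 258, 467, 789 and 357 CPM to 20.8 to 107 CPM (log2 -2.39 ± 0.42, edgeR adjusted p = 0.000723) and was the only p53 target of 22 to pass. The secreted Wnt modulator gene Sfrp1 (-2.91 ± 0.51, adjusted p = 0.000442), the prostaglandin D synthase gene Hpgds (-2.88 ± 0.50, 0.000347), the focal adhesion gene Tns2 (-2.69 ± 0.40, 4.2e-05), the guanine nucleotide exchange factor gene Arhgef28 (-2.77 ± 0.54, 0.00129), the membrane progestin receptor gene Paqr5 (-2.45 ± 0.50, 0.00234) and the tetraspanin-like gene Tm4sf1 (-4.63 ± 0.92, 0.00179) fell. Cd28, a T-cell co-stimulator gene, had a log2 change of -2.81 ± 0.75 (adjusted p = 0.0255), lost on leaving out any of 4 libraries. Hpgds had a log2 value of -0.28 ± 0.50 with Ezh2 intact, and the difference did not pass over all genes (edgeR unadjusted p = 0.0018, adjusted p = 0.44).

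Among the largest rises were genes with low levels in Ezh2-null cells. Mab21l2, a developmental gene of the eye, was at 1.18 to 4.55 CPM without and 36.9 to 123 CPM (median 67.1) with JAK2-VF (log2 4.46 ± 1.06, edgeR adjusted p = 0.0108), and did not pass once Ezh2-null batch 2 replicate 1 was left out. Cox4i2, an oxygen-responsive subunit of cytochrome oxidase, went from 6.68 CPM in batch 1 and 4.11, 2.42 and 8.22 CPM in batch 2 to 32.5 to 63.0 CPM (3.49 ± 0.43, adjusted p = 2.88e-06). The neural adhesion gene Ncam2 (3.42 ± 0.46, 1.01e-05), the extracellular matrix gene Emilin2 (3.22 ± 0.64, 0.00181), the sulfotransferase gene Chst2 (2.89 ± 0.35, 2.88e-06), the tight-junction gene Tjp1 (2.88 ± 0.70, 0.0125) and Podxl, a sialomucin related to CD34 (2.78 ± 0.51, 0.00073), rose in 6 of 6 libraries above every Ezh2-null library. Ccn3, a secreted matricellular regulator of stem cells, had 0 counts in the 4 Ezh2-null libraries and 2312 in the 6 mutant libraries, at least 469-fold higher (adjusted p = 1.37e-06). The mutant libraries held 4.22 to 14.7 CPM of Ccn3, with batch 1 replicate 2 the lowest.

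Of 43 erythroid genes tested 4 rose and 1 fell (median -0.14). Hbb-bt, a beta-globin gene, has the same count as its copy Hbb-b2 in every library. It rose from 18.9 CPM in batch 1 and 21.3, 47.6 and 29 CPM in batch 2 to 66.4 to 359 CPM (median 248), a log2 change of 3.24 ± 0.54 (edgeR adjusted p = 0.000276), while Hbb-bs (-2.90 ± 1.14) and Hba-a1 (-4.75 ± 1.89) did not pass. The 2 copies count as 1 measurement, so 3 distinct erythroid signals rose, with Rhag, of the Rh complex (1.64 ± 0.33, adjusted p = 0.00213), and the heme synthesis gene Alad (0.43 ± 0.13, 0.0427), whose call was lost on leaving out any of 8 libraries. Epb41, of the membrane skeleton, fell (-0.64 ± 0.15, 0.00671). The summed erythroid level overlapped between the groups (6200 to 8020 and 6840 to 8070 CPM), and Slc4a1, of mature erythroid membranes, was at 0 in at least 5 of the 10 libraries.

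Of 32 megakaryocyte and platelet genes 1 rose and 4 fell (median -0.11). The summed level was 4770 to 5320 CPM in Ezh2-null libraries and 3480 to 5150 CPM in 5 mutant libraries, and 9030 CPM in batch 1 replicate 2. F2r, a thrombin receptor gene, rose by 1.32 ± 0.40 (edgeR adjusted p = 0.0488), with that library at 665 CPM and the other 5 at 162 to 256 CPM, and the call was lost without it or without any of 6 others. Cavin2 (-1.56 ± 0.44, adjusted p = 0.0363), Thbs1 (-1.87 ± 0.54, 0.0392) and Gng11 (-0.56 ± 0.16, 0.0272) were among those that fell, and each of these 3 calls was lost on leaving out any of at least 5 libraries. Of 37 neutrophil and monocyte genes 2 rose, the matrix metalloproteinases Mmp8 (10.70 ± 2.47, adjusted p = 0.00844) and Mmp9 (6.63 ± 1.81, 0.0274), with 32 of 37 values positive and a median of 0.95. Neither passed under limma-voom (adjusted p = 0.146 for Mmp8 and 0.159 for Mmp9) or with the groups fitted alone, and the Mmp9 call was lost on leaving out any of 3 libraries. Both were at 0 CPM in mutant batch 1 replicate 3 and at 4.33 to 31.9 CPM in the other 5 mutant libraries, and at most 0.677 CPM in Ezh2-null libraries. With Ezh2 intact, Mmp8 was at 8.76 ± 13.2 CPM (SD) in control and 5.67 ± 5.55 CPM in JAK2-VF libraries. Mmp9 was at 17.4 ± 21.7 and 7.84 ± 6.99 CPM there, so both were present in cells with neither mutation. The summed level of the neutrophil and monocyte list was 2250 to 4990 CPM in Ezh2-null and 1550 to 9380 CPM in JAK2-VF Ezh2-null libraries. It was lowest in the library that lacked Mmp8 and Mmp9, and its part in these rises was not tested. None of 13 mast cell, basophil and eosinophil genes passed: Mcpt8 had a log2 value of 8.04 ± 2.69 (adjusted p = 0.0764) and Gzmb 5.69 ± 3.21 (0.359). Their summed level was 29.6 to 31.4 CPM in 3 Ezh2-null libraries and 701 CPM in batch 2 replicate 2, with a group median of 30.7 CPM, and 24.3 to 407 CPM (median 163) in the mutant libraries. Of the 15 B cell and plasma cell genes 1 rose (Xbp1, below), of 12 T and NK cell genes 1 rose (Il2rb, with counts in 3 of 6 mutant libraries, at most 7.93 CPM) and of 14 endothelial and stromal genes 1 fell (Pdgfra, at 0.442 CPM in 1 Ezh2-null library and 0 in all others of the 10). Ms4a1, Pax5 and Cd3e were at 0 in at least 5 of the 10 libraries and Cdh5, of endothelium, in all 10.

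The MHC class II genes, which present antigen and are transcribed under Ciita, were lower. Of 9 tested 4 fell and none rose, with a median of -1.02 and all values negative. Summed, they were at 1860 CPM in batch 1 and 1914, 2137 and 2076 CPM in batch 2 of Ezh2-null cells, at 607 to 745 CPM in 5 mutant libraries, and at 2415 CPM in JAK2-VF Ezh2-null batch 1 replicate 2. That library lay above every Ezh2-null library, and without it 6 of the 9 fell. H2-Ab1 went from 196 to 252 CPM to 51.7 to 88.6 CPM in 5 libraries and 241 CPM in batch 1 replicate 2 (log2 -1.07 ± 0.29, edgeR adjusted p = 0.0255), and H2-Aa from 239 to 318 CPM to 48.0 to 93.2 and 330 CPM (-1.24 ± 0.36, 0.0368). H2-DMa (-0.47 ± 0.13, 0.0225) and H2-DMb1 (-0.48 ± 0.13, 0.0255), which load peptides, fell too. No call of this list held on leaving out each of the 10 libraries, and 0 of the 9 passed without Ezh2-null batch 2 replicate 1 or without JAK2-VF Ezh2-null batch 2 replicate 2.

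**Figure D4:**
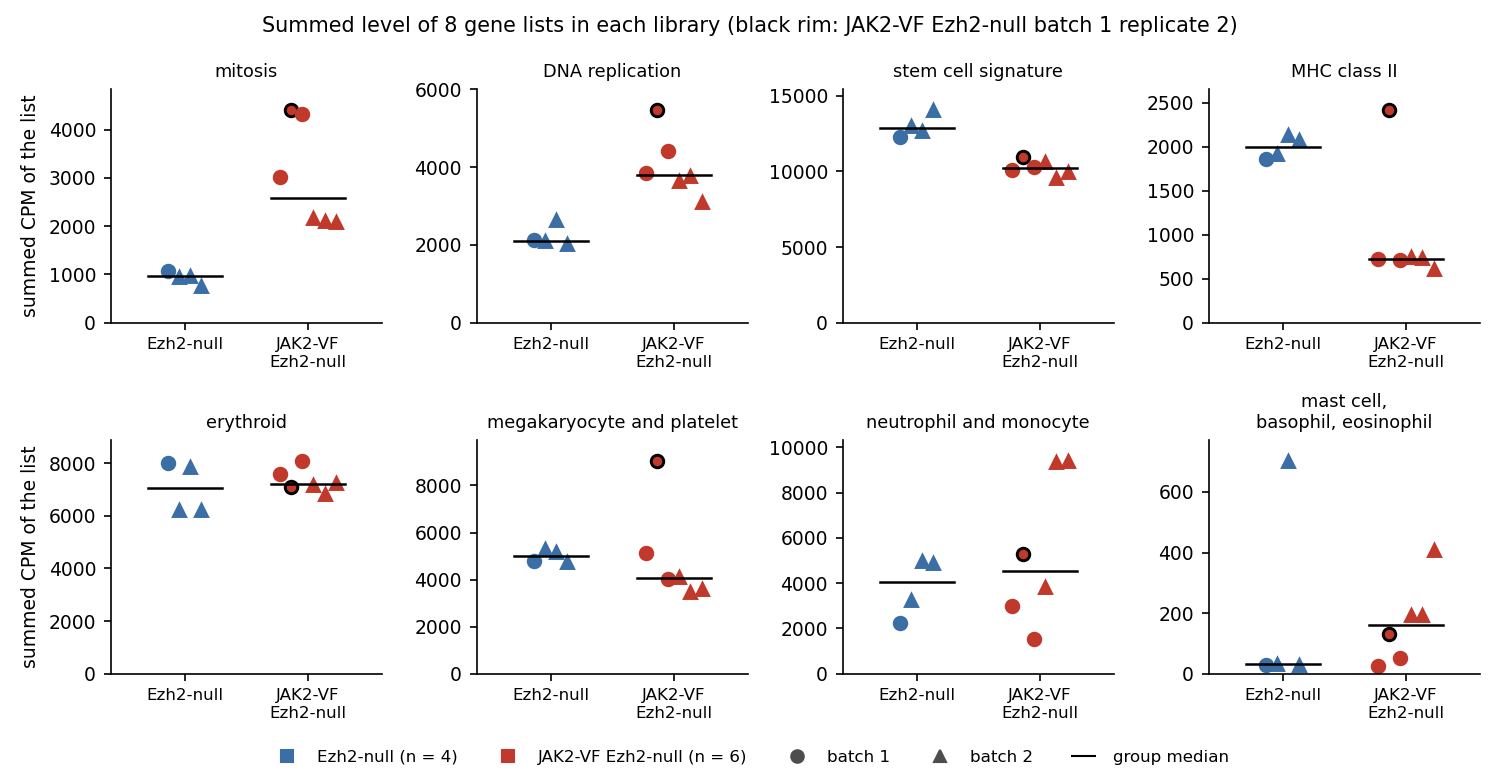
Summed CPM of 8 gene lists in each library, with group medians as lines and JAK2-VF Ezh2-null batch 1 replicate 2 rimmed in black. Mitosis and DNA replication sums are higher in all 6 JAK2-VF Ezh2-null libraries and stem cell sums lower, while the rimmed library holds 9030 CPM of megakaryocyte genes and 2415 CPM of MHC class II genes.

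Of 27 PRC2 and PRC1 genes tested 4 fell and none rose (median -0.16): the PRC1 chromobox genes Cbx7 (-0.99 ± 0.22, edgeR adjusted p = 0.00498) and Cbx6 (-0.54 ± 0.13, 0.0143), Ezh1, the other catalytic subunit of PRC2 (-0.63 ± 0.18, 0.0295), and Phf1, of a PRC2 variant (-1.07 ± 0.30, 0.0314). Ezh1 went from 95.2 CPM in batch 1 and 121, 144 and 149 CPM in batch 2 to 69.0 to 88.9 CPM, without overlap, and the same change was measured with Ezh2 intact (-0.62, adjusted p = 0.0407). The Ezh1 and Phf1 calls were each lost on leaving out any of 5 libraries, and 2 of the 27 fell without Ezh2-null batch 2 replicate 1, Ezh2-null batch 2 replicate 3 or JAK2-VF Ezh2-null batch 2 replicate 2. Of 18 Hox A and B genes Hoxa5 (-1.60 ± 0.27, 0.000211) and Hoxa3 (-1.25 ± 0.37, 0.0428) fell and none rose (median -0.48), and the Hoxa3 call was lost on leaving out any of 8 libraries. Of 13 fetal and oncofetal genes Mycn and Hmga1, a chromatin architectural gene (1.09 ± 0.19, adjusted p = 0.000337), rose and Igf2 fell. Lin28b, an RNA-binding regulator of fetal stem cells, was at 0.555 to 3.09 CPM and 2.55 to 12.2 CPM and did not pass (log2 1.23 ± 1.34, adjusted p = 0.697).

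Interferon-stimulated genes did not shift as a list. Of 58 tested 3 rose and none fell, with a median of 0.02. Ifitm1 went from 899 CPM in batch 1 and 786, 629 and 848 CPM in batch 2 to 729 to 1910 CPM (log2 1.05 ± 0.20, edgeR adjusted p = 0.000878), with batch 1 replicate 2 alone within the Ezh2-null range. The guanylate-binding protein genes Gbp7 (0.63 ± 0.13, 0.00244) and Gbp3 (0.77 ± 0.17, 0.00584) rose, with Gbp family members close enough in sequence that reads may be shared. Of 28 fibrosis and cytokine genes 2 rose (Osm and Mmp9) and 3 fell. The chemokine gene Ccl4 fell from 106 CPM in batch 1 and 93.8, 88.9 and 107 CPM in batch 2 to 14.3 to 43.3 CPM (-1.80 ± 0.33, adjusted p = 0.000688), with Ccl3 (-2.04 ± 0.57, 0.0295) and the growth factor gene Hgf (-0.96 ± 0.27, 0.0335). The Ccl3 call was lost on leaving out any of 5 libraries and the Hgf call any of 7.

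For the lists that follow, the values over all 14945 genes tested were 428 rises, 295 falls and 7577 positive values. Of 31 oxidative phosphorylation genes 5 rose and none fell, with 30 positive values and a median of 0.27. Among the 5 were Uqcrc1 of complex III (0.48 ± 0.11, edgeR adjusted p = 0.00725) and Ndufa9 of complex I (0.49 ± 0.12, 0.00857). Of 25 ribosome biogenesis genes 2 rose, with 24 positive values and a median of 0.31. The nucleolar chaperone gene Npm1 went from 518 to 523 CPM to 780 to 888 CPM (0.63 ± 0.11, 0.000657), and Rrp9, of the small-subunit processome, had 0.68 ± 0.17 (0.0133). Of 21 glycolysis genes 1 rose, the enolase gene Eno1 (0.58 ± 0.11, 0.00109). Of 28 cholesterol and fatty acid synthesis genes none passed, and Insig1, which restrains the pathway, had a log2 value of -0.51 ± 0.21 and Sc5d, a sterol desaturase gene, one of 0.33. Of 24 unfolded protein response genes Xbp1, its transcription factor (1.2 ± 0.18, adjusted p = 6.05e-05), rose and the chaperone gene Dnajb9 (-0.79 ± 0.22, 0.0265) fell. The RAS-MAPK inhibitor gene Spry2 fell (-0.84 ± 0.24, edgeR adjusted p = 0.0369), 1 of 11 feedback genes, with a value of 0.32 in batch 1 alone. The Spry2 call was lost on leaving out any of 7 libraries, the Dnajb9 call any of 5 and the Rrp9 call any of 2.

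The comparison with Ezh2-intact cells asks which of these changes JAK2-VF also made when Ezh2 was present. There 358 genes rose (2.4%) and 273 fell (1.83%), and 167 rises and 82 falls were called in both settings, which is 39% of the 428 and 46.6% of the 358 rises and 27.8% and 30% of the falls. Of the 428 genes that rose without Ezh2, 388 (90.7%) had a positive value with it, and 273 of the 295 that fell (92.5%) a negative one, against the same sign in 64.5% of all genes tested. Of the division genes, 27 of 40 mitosis genes rose with Ezh2 intact (median 1.72, against 1.97) and 18 of 32 replication genes (median 0.97, against 0.96), and no gene of either list had an unadjusted p under 0.05 for the difference. The stem-cell list had 18 falls and a median of -0.52 there. Mllt3 changed by -1.30 ± 0.16 with Ezh2 intact and -1.19 ± 0.15 without, and Cdk1 by 1.83 ± 0.29 and 1.85 ± 0.29, differences of 0.11 ± 0.24 and 0.02 ± 0.41.

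The difference between the effects itself passed for 1 of 14945 genes (0.00669%), with 809 genes at an unadjusted p under 0.05, and DESeq2's Wald test passed 92. Lgals1, which encodes the secreted lectin galectin-1, rose without Ezh2, from 30 CPM in batch 1 and 16.4, 30.5 and 24.1 CPM in batch 2 to 31.8 to 59.5 CPM (median 46.4), and every mutant library lay above every Ezh2-null library. The log2 change was 1.1 ± 0.23 (edgeR adjusted p = 0.00268). With Ezh2 intact it fell, from 29.8 ± 5.88 (n = 4) to 20 ± 5.24 CPM (n = 6), and the log2 change was -0.84 ± 0.22 (edgeR adjusted p = 0.0243). The difference was 1.94 ± 0.34 (edgeR adjusted p = 0.0277), and it did not pass on leaving out any of 7 of the 20 libraries of the 4 groups, or without the term for sex. Sex was skewed in opposite directions in the comparisons with and without Ezh2, as given above. Next in order of p, and not past the test, were Pcdhb13, Ncam2 (difference 3.10 ± 0.63), Xbp1 (1.30 ± 0.27) and Hbb-bt (3.75 ± 0.77), each at an edgeR adjusted p of 0.0775. Pcdhb13, a protocadherin gene, was at 0 CPM in all 4 Ezh2-null libraries and at most 2.34 CPM in the mutant ones. Xbp1 was at 207 ± 28.9 and 216 ± 63.2 CPM in control and JAK2-VF cells and at 168 ± 34.3 and 354 ± 96.6 CPM in Ezh2-null and JAK2-VF Ezh2-null cells. Without JAK2-VF Ezh2-null batch 1 replicate 2, 9 genes passed, with Hbb-bt and its copy Hbb-b2 counted apart though they are 1 signal. Among the others were Lgals1, Socs2, Ncam2, Xbp1, Chst2 and Pcdhb13, the last at the low levels just given.

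Immediate-early genes had opposite medians in the 2 settings. Without Ezh2, 1 of 34 passed and fell, and the median was -0.37, while with Ezh2 intact 8 rose and the median was 0.76. Of the 34 genes 14 had an unadjusted p under 0.05 for the difference, against 809 of 14945 genes, and none passed it over all genes. Fos had log2 values of -0.1 ± 0.38 and 1.53, and Jun of -0.62 ± 0.38 and 1.28, without and with Ezh2 (edgeR unadjusted p = 0.00877 and 0.00285 for the difference). The gene that fell, Hspa1a, was at 27.4 CPM in batch 1 and 1.74, 57.1 and 0 CPM in batch 2 of Ezh2-null cells. In JAK2-VF Ezh2-null libraries it was at 0 to 0.373 CPM, so the groups overlapped. Hspa1a has a near-identical copy, Hspa1b. MHC class II genes, of which none passed with Ezh2 intact (median -0.45), had no gene with an unadjusted p under 0.05 for the difference.

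**Figure D5:**
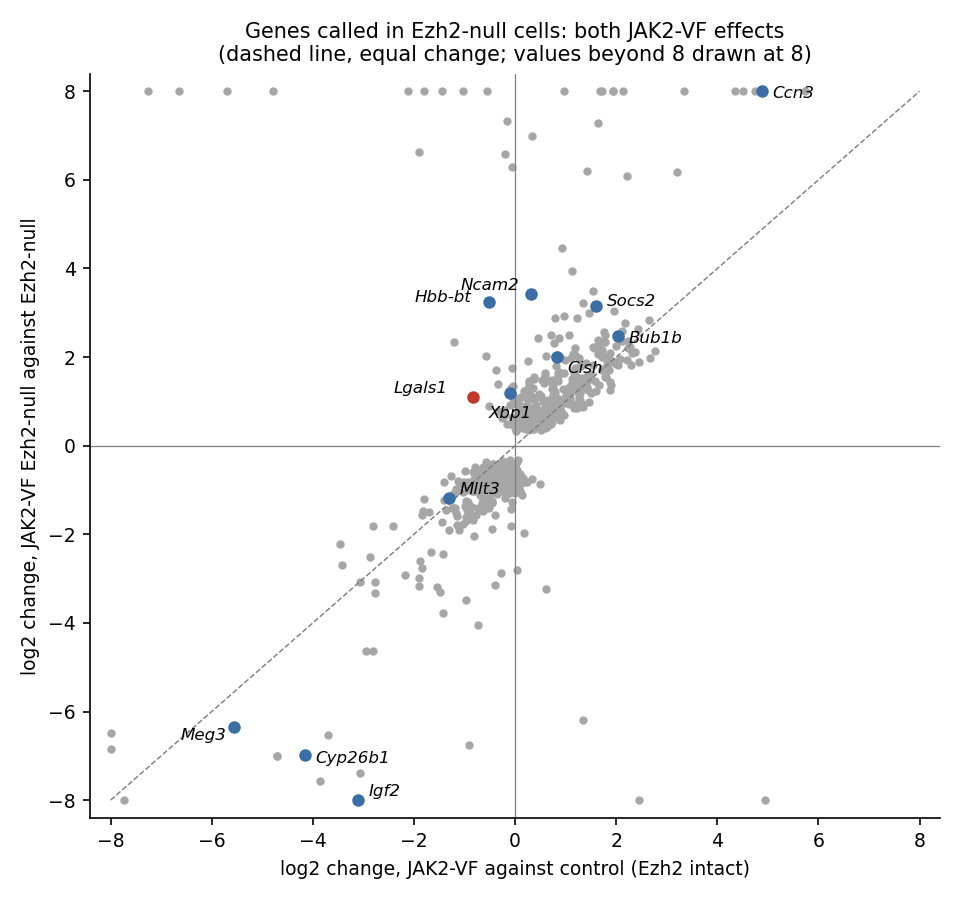
Log2 change with JAK2-VF in Ezh2-intact cells (horizontal) and Ezh2-null cells (vertical) for the 723 genes that passed in Ezh2-null cells, one point per gene, with a dashed line of equal change and values beyond 8 drawn at 8. Of the 428 genes above 0 on the vertical axis 388 lie to the right of 0, and Lgals1 (red), the gene whose difference passed, lies at -0.84 and 1.1.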

How the data were processed

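RNA from sorted LT-HSCs was sequenced by the submitters after low-input amplification (SMARTer), and the deposited values are raw read counts per gene, per the file headers. The reads were aligned with STAR to build mm9, per the submitters' processing notes. For the STAR version, annotation, counting tool and strand setting nothing is given in the sources used here, so antisense or overlapping genes cannot be told apart. The 19138 gene rows were used, without the row for part of Ezh2. Of these, 19075 matched a symbol (RefSeq, GRCm38.p6) and 14945 passed filterByExpr.

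All 35 libraries were fitted with edgeR 4.0.16 (TMM scaling, quasi-likelihood test with robust moderation) with terms for genotype, batch and sex. Calls needed p under 0.05 after Benjamini-Hochberg adjustment over all genes tested. CPM used TMM-scaled library sizes, and SE is the log2 change divided by the root of F. Genes were named by rule: Ezh2, Jak2, JAK-STAT genes that passed, the 15 largest rises and 15 largest falls at a mean log2 CPM of at least 3, up to 5 called genes per list (without any, the 2 of smallest p) and the 10 of smallest p for the difference. Genes named outside it, such as Procr, Rian and those given as not passing, were picked once their values were known. The members and lists were chosen with earlier results of these data known. On simulated counts for 14945 genes, 56 of 100 genes changed by 1 on the log2 scale and 95 of 100 changed by 2 were recovered, with 11 false among 162 calls. The changed genes all had a mean log2 CPM of at least 3, and no batch or sex effect was simulated. Recovery of genes at lower levels was not tested. DESeq2 1.42.0, limma 3.58.1 and other settings were alternatives. Some results are not reported here.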

Additional observations from a re-analysis of the deposited data

Results flagged for a closer look

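Within groups, 19 of 186 gene and group sets had 1 library far from the rest by Dixon's test (10.2%). Chance gives about 5% for independent normal values, but the test was run on CPM of genes mostly named because they passed. An excess of outliers therefore cannot be read from this share. Library JAK2-VF Ezh2-null batch 1 replicate 2 was the library in 9 of them. It was highest for Fen1 (252 CPM, the other 5 at 154 to 189), Rbl2 (160, others 69 to 89.8), H2-Ab1 (241, others 51.7 to 88.6), H2-Aa (330, others 48 to 93.2), Cavin2 (206, others 11.4 to 55.4), Thbs1 (64.6, others 6.4 to 23.3), F2r (665, others 162 to 256) and Ccl3 (15.1, others 1.32 to 6.45). It was lowest for Ccn3 (4.22, others 11.6 to 14.7).

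Batch 1 replicate 3 of the same group stood highest for Foxm1 (41.4 CPM, others 6.03 to 15.5) and Rarb (3.17, others 0.31 to 1.27), and batch 2 replicate 1 for Tm4sf1 (2.36, others 0 to 0.688). Batch 1 replicate 1 stood lowest for Plk2 (20.8, others 76.7 to 107) and Spry2 (63.1, others 91 to 106). Among Ezh2-null libraries, batch 1 replicate 1 was low for Hmga1 (17.6, others 29.8 to 31.5) and high for Gbp3 (154, others 108 to 115). Batch 2 replicate 1 was low for Mycn (76.9, others 133 to 144) and Alad (53.1, others 84.9 to 85.6), and batch 2 replicate 2 alone had Mmp8, at 0.0645 CPM.

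Between the settings, the effect of JAK2-VF on Lgals1 went in opposite directions with and without Ezh2, a log2 difference of 1.94 that passed the test in edgeR (adjusted p = 0.0277).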

How the results depend on the processing

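With 428 genes higher, 295 lower, 1 with a difference between the settings and 631 changed by JAK2-VF with Ezh2 intact, the DESeq2 Wald test gave 650, 467, 92 and 1003. The newer quasi-likelihood method of edgeR, chosen after seeing the data, gave 642 higher and 545 lower. Without the term for sex the difference passed for 2 genes, the copies Hbb-bt and Hbb-b2, which are 1 signal, and not for Lgals1. Fitting the groups compared alone gave 163 higher, 89 lower and 0 differences. The replicate block gave 260 higher, 161 lower and 0 differences. Deviations from the fit in same-numbered Ezh2-null and JAK2-VF Ezh2-null libraries had correlations of -0.007 to -0.045. Whether such libraries shared more than a number cannot be told from these correlations. Batch 1 alone gave 3 higher, 0 lower, 0 differences and 83 with Ezh2 intact, batch 2 alone 185, 188, 0 and 38, and females alone 28, 28, 0 and 411. Without 2 doubted Ezh2-heterozygous libraries, which are in neither group compared but share the estimate of spread, 0 differences passed. Leaving out 1 library at a time gave 223 to 399 higher, 134 to 276 lower, 0 to 9 differences and 282 to 676 with Ezh2 intact. The cause of these moves was not tested, and the subsets also hold fewer libraries.

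Replication genes that rose numbered 10 with the groups compared alone, 12 with the block, 0 in batch 1, 4 in batch 2 and 2 in females, mitosis genes 0 in batch 1, 14 in batch 2 and 7 in females, and stem-cell genes that fell 9, 0 and 5 with the groups alone, in batch 1 and in females. The PRC2 and PRC1 genes that fell (4) numbered 0 with the groups alone, in batch 1 and in females, 1 in batch 2 and 2 with the block. MHC class II genes that fell (4) numbered 2 without the low-count filter, 0 with the groups alone, 2 with the block and 0 in batch 1 and in females, and JAK-STAT genes that rose (7) numbered 1 in batch 1 and 3 in females. Batch 1 alone turned the sign of Ezh2 (-0.05), Kit (0.09), Rarb (0.71), Phf1 (0.3), Cavin2 (0.69) and Spry2 (0.32), and females alone that of Ezh2 (-0.17). Of 92 called genes taken from those picked by the naming rule, 59 stayed called on leaving out each of the 10 libraries. Some of the 92 are not described above, and some called genes described above, such as Procr and Rian, are not among them. At low CPM a single library can hold 0 counts, and the Ezh2-null group has 4 libraries.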
